A study of Saccharomyces cerevisiae with 12 samples.

Results

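Leucine, valine and isoleucine are the branched-chain amino acids, and this account follows 10 genes that Saccharomyces cerevisiae uses to make them: ILV2, ILV6, ILV5, ILV3, LEU4, LEU9, OAC1, LEU1, BAT1 and BAT2. They were picked as the gene probes whose systematic name is the open reading frame of one of these genes, which gave 10 of the 6224 genes on the array. The list was drawn up with earlier results of these data known, so counts over it are descriptive. RNA came from yeast of strain L40 in 3 groups of 4 arrays. The 58F group stably expressed the intrabody scFv-58F, a single-chain antibody fragment made inside the cell and directed at histone H3 acetylated on lysine K9. The 112A group stably expressed scFv-112A, which is directed at acetylated HIV-1 integrase and serves as the control intrabody, and the wild type expressed none. The intrabody strains were streaked and pre-grown in SD-Leu, a medium without leucine, whereas the wild type was kept in the rich medium YPD. For the final night all groups were grown in YPD at 30 °C. A comparison of either intrabody strain with the wild type therefore also compares pre-cultures, and these cannot be told apart. The labels do not say whether the 4 samples of a group were separate cultures, so p-values measure the spread between these samples, which may be technical.

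Valine and leucine synthesis begins in the mitochondrion. Acetolactate synthase makes a precursor that 2 further enzymes turn into the keto acid of valine, and isopropylmalate synthase draws on that keto acid to open the leucine branch. The isopropylmalate leaves the mitochondrion and is rearranged and oxidised in the cytosol, and aminotransferases add the amino group at the end. The same isopropylmalate binds the transcription factor Leu3 and turns it into an activator, and Leu3 targets known in this yeast include LEU1, LEU2, LEU4, ILV2, ILV5, BAT1, OAC1 and GDH1. Gcn4, the activator of amino acid synthesis genes under starvation, acts on many of the same genes.

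All values below are levels or differences on a log2 scale. A level is the log2 processed signal of a gene's probe minus the 75th percentile of its array, so a level of 0 is the signal at that percentile, and levels are compared between arrays for one gene and never between genes. Each of the 10 genes has 1 probe printed in 2 spots, was well above background on 4 of 4 arrays of every group, and had no saturated spot. The median difference between the 2 spots of a probe on an array ran from 0.03 for LEU4 and BAT2 to 0.26 for OAC1. Between 87.0% and 94.7% of the gene spots were well above background on an array. Wild-type replicate 1 was the brightest array, with a 75th percentile of 9362 in processed signal, against 4739 to 6047 on the other arrays. Each group lay on 1 slide and 1 scan of its own, so slide and group cannot be told apart in any comparison. Since each array measured the RNA of a whole culture, fewer cells expressing a gene and less of its RNA per cell cannot be told apart either. A difference was called when its adjusted p over the 5827 genes tested was under 0.05.

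**Figure D1:**
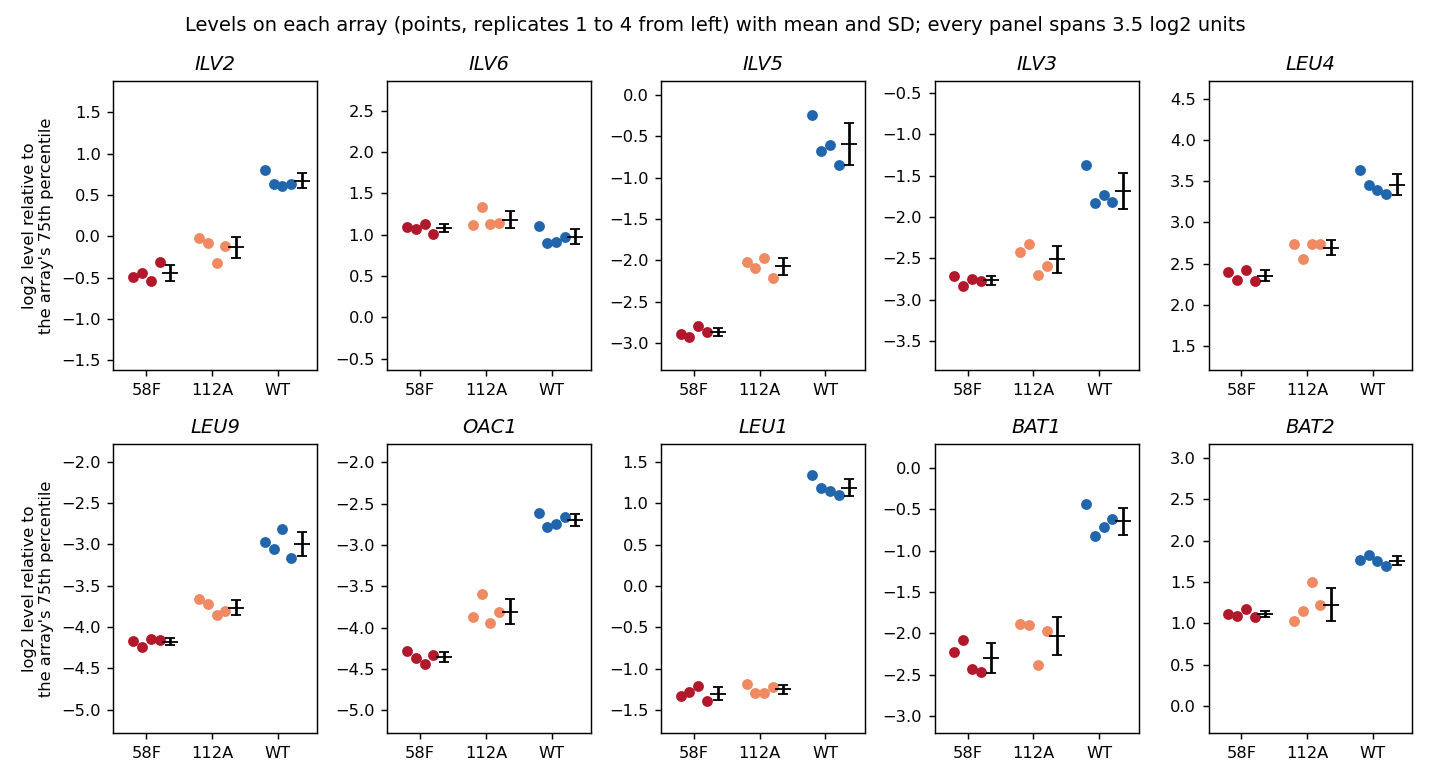
Level of each of the 10 genes on all 12 arrays, as log2 processed signal relative to the array's 75th percentile; points are arrays and bars are group means with SD over 4 arrays. The wild-type arrays lie above those of both intrabody strains for every gene except ILV6, whose 58F and wild-type arrays overlap.

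Of the pathway's 10 genes, 9 were lower in 58F than in the wild type, 8 of them by at least 2-fold, and none was higher. In this comparison 61.7% of all genes tested were called, 33% lower and 28.7% higher, while 2.68% were called lower and 0.875% higher by at least 2-fold. The arrays of the groups did not overlap for 9 of the 10 genes, all lower in 58F, whereas over all genes 57.7% did not overlap, 31.2% lower and 26.6% higher. The median change of the 10 genes was -1.15, against -0.02 over all genes tested. In 112A, 9 of the 10 genes were lower than in the wild type and 1 was higher, and 4 were lower by at least 2-fold. There 48.3% of all genes tested were called, 25.6% lower and 22.7% higher. The genes called lower by at least 2-fold in 112A numbered 17, which is 0.292% of those tested, and LEU1, ILV5, BAT1 and OAC1 were 4 of them, while 0.412% were higher by that much. The arrays did not overlap for any of the 10 genes, 9 lower and 1 higher, against 39.9% of all genes, 22.2% lower and 17.7% higher. The median change of the 10 genes in 112A was -0.81, against -0.01 over all genes.

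Between the strains that share the leucine-free pre-culture, 58F had lower levels of 5 of the 10 genes, ILV5, OAC1, LEU9, LEU4 and ILV2, and none was higher. Over all genes tested, 32.2% were called in this comparison, 18.5% lower and 13.7% higher. Of all calls 42.6% were higher in 58F, and this share was 53% after quantile normalization. No member reached a 2-fold difference, which 0.481% of all genes did as lower calls and 0.0686% as higher ones. The arrays did not overlap for 5 of the 10, all lower in 58F, against 34.6% of all genes, 20% lower and 14.6% higher. These 5 were ILV5, OAC1, LEU9, LEU4 and ILV3, of which ILV3 was not called, while ILV2 was called although its arrays overlapped. The median of the 10 genes was -0.29, against -0.02 over all genes. The group means ran from 58F as the lowest through 112A to the wild type as the highest for 9 of the 10 genes. However, for LEU1, BAT2, BAT1 and ILV3 the step from 58F to 112A did not pass the test. The share of all genes with this order of means was not counted. These 3 comparisons share arrays in pairs, so their values are given side by side and are not independent of each other.

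**Figure D2:**
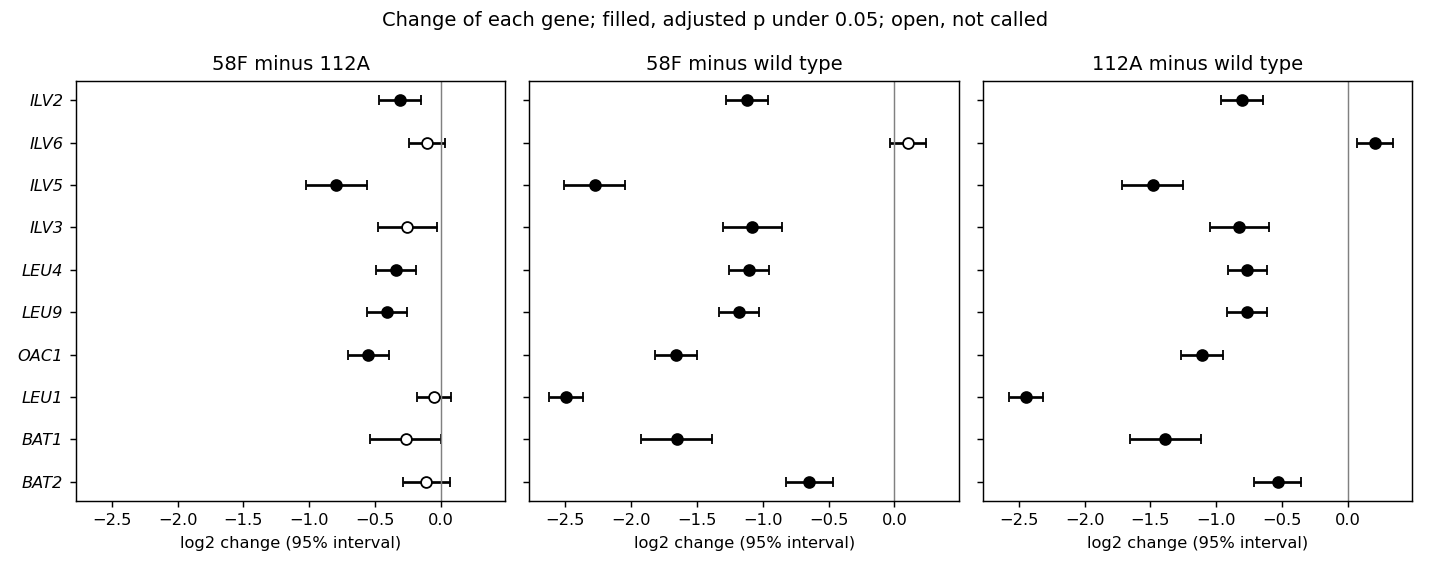
Log2 change of each gene in the 3 comparisons with its 95% interval from limma; filled points were called at an adjusted p under 0.05 and open points were not. Against the wild type the changes range from -2.49 for LEU1 in 58F to 0.21 for ILV6 in 112A, and between 58F and 112A from -0.79 for ILV5 to -0.05 for LEU1.

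Acetolactate synthase is built from a catalytic subunit, Ilv2, and a regulatory subunit, Ilv6, which makes the enzyme sensitive to valine. ILV2 stood at -0.49, -0.44, -0.54 and -0.31 on the 58F arrays, replicates 1 to 4. On the 112A arrays its levels were -0.02, -0.08, -0.32 and -0.12. The wild-type arrays gave 0.80, 0.64, 0.61 and 0.64. All wild-type arrays lay above every intrabody array, while 112A replicate 3 fell within the range of 58F. ILV2 was 2.17-fold lower in 58F than in the wild type (log2 change -1.12 ± 0.07 SE, adjusted p 4.01e-07) and 1.75-fold lower in 112A (-0.81 ± 0.07, adjusted p 1.07e-05). Between 58F and 112A it was lower by a smaller amount, at -0.31 ± 0.07 (adjusted p 0.00743).

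ILV6 was the exception among the 10 genes. Its levels were 1.10, 1.07, 1.13 and 1.01 in 58F. In 112A they were 1.11, 1.34, 1.14 and 1.14. In the wild type they were 1.11, 0.90, 0.92 and 0.98. The 112A arrays lay above the wild type, although the lowest of one and the highest of the other were equal to 2 decimals, and the 58F arrays overlapped both groups. ILV6 was 1.15-fold higher in 112A than in the wild type (0.21 ± 0.06, adjusted p 0.0161). In 58F the difference from the wild type was 0.10 ± 0.06 with a 95% interval of -0.03 to 0.24 and an adjusted p of 0.167. Without wild-type replicate 1 it was 0.15 and was called (adjusted p 0.0458). The difference between 58F and 112A was -0.10, with an interval of -0.24 to 0.03 (adjusted p 0.213).

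The next enzymes serve valine, leucine and isoleucine alike. Ilv5, the acetohydroxyacid reductoisomerase, also helps to keep mitochondrial DNA stable. ILV5 levels were -2.89, -2.92, -2.80 and -2.86 in 58F. In 112A they were -2.02, -2.09, -1.97 and -2.21. The wild type gave -0.24, -0.67, -0.61 and -0.85, the widest spread of any group for this gene. The groups did not overlap in any of the comparisons. ILV5 was 4.85-fold lower in 58F than in the wild type (-2.28 ± 0.11, adjusted p 4.96e-08) and 2.79-fold lower in 112A (-1.48 ± 0.11, adjusted p 2.29e-06). Ordered from the lowest change upward, it held rank 4 of 5827 genes in 58F and rank 3 in 112A. It also had the largest difference between the intrabody strains among the 10 genes, 1.73-fold lower in 58F (-0.79 ± 0.11, adjusted p 0.00035), with a 95% interval of -1.02 to -0.56.

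Ilv3, dihydroxyacid dehydratase, makes the keto acids that precede valine and isoleucine and carries an iron-sulfur cluster. Levels of ILV3 in 58F were -2.71, -2.84, -2.75 and -2.77. The 112A arrays gave -2.43, -2.33, -2.70 and -2.59. The wild-type arrays gave -1.37, -1.83, -1.74 and -1.82. The 3 groups did not overlap, with 112A replicate 3 next to the 58F arrays and wild-type replicate 1 apart from its group. ILV3 was 2.11-fold lower in 58F than in the wild type (-1.08 ± 0.10, adjusted p 4.61e-06) and 1.77-fold lower in 112A (-0.82 ± 0.10, adjusted p 9.04e-05). The difference between 58F and 112A, -0.25 ± 0.10, missed the threshold (adjusted p 0.0801). Leaving out 112A replicate 3 (-0.32, adjusted p 0.0437) or wild-type replicate 1 (-0.25, adjusted p 0.0185) brought it past the threshold. So did leaving out the whole wild-type group (-0.25, adjusted p 0.037).

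Leu4 and Leu9 are paralogous isopropylmalate synthases that commit the valine keto acid to leucine, and Leu4 is the form that leucine inhibits most strongly. LEU4 levels were 2.40, 2.30, 2.43 and 2.29 in 58F. In 112A they were 2.74, 2.56, 2.74 and 2.74. In the wild type they were 3.64, 3.45, 3.40 and 3.35. No array of one group reached into another group. LEU4 was 2.15-fold lower in 58F than in the wild type (-1.11 ± 0.07, adjusted p 2.71e-07) and 1.70-fold lower in 112A (-0.76 ± 0.07, adjusted p 9.79e-06). It was 1.27-fold lower in 58F than in 112A (-0.34 ± 0.07, adjusted p 0.00333).

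LEU9 levels in 58F were -4.16, -4.24, -4.15 and -4.16. The 112A arrays gave -3.67, -3.72, -3.86 and -3.81. The wild-type arrays gave -2.97, -3.06, -2.82 and -3.16. Here too the groups stood apart. LEU9 was 2.26-fold lower in 58F than in the wild type (-1.18 ± 0.07, adjusted p 2.14e-07) and 1.70-fold lower in 112A (-0.77 ± 0.07, adjusted p 1.08e-05). Its difference between 58F and 112A was -0.41 ± 0.07 (adjusted p 0.00133). The share of signal that the probes of close paralogues take from each other was not tested.

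Oac1 is the carrier in the inner mitochondrial membrane that moves oxaloacetate and sulfate and exports isopropylmalate to the cytosol. OAC1 levels were -4.29, -4.37, -4.44 and -4.33 in 58F. In 112A they were -3.88, -3.59, -3.94 and -3.81. The wild type gave -2.61, -2.78, -2.74 and -2.66. The groups did not overlap, although the 2 spots of this probe differed more than those of the other 9, by up to 0.50 on 1 array. OAC1 was 3.16-fold lower in 58F than in the wild type (-1.66 ± 0.07, adjusted p 3.64e-08) and 2.16-fold lower in 112A (-1.11 ± 0.07, adjusted p 1.17e-06). It was 1.46-fold lower in 58F than in 112A (-0.55 ± 0.07, adjusted p 0.000327), the second largest difference of the 10 after ILV5.

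Leu1, isopropylmalate isomerase, is a cytosolic iron-sulfur enzyme. LEU1 levels in 58F were -1.33, -1.28, -1.22 and -1.39. In 112A they were -1.18, -1.30, -1.30 and -1.23. The wild-type arrays gave 1.34, 1.18, 1.14 and 1.10. The intrabody arrays were interleaved, and all lay more than 2 log2 units below the lowest wild-type array. LEU1 had the lowest change of all 5827 genes in both comparisons with the wild type, 5.64-fold lower in 58F (-2.49 ± 0.06, adjusted p 8.27e-11) and 5.43-fold lower in 112A (-2.44 ± 0.06, adjusted p 1.06e-10). Between the intrabody strains its difference was -0.05 ± 0.06, with a 95% interval of -0.18 to 0.08 (adjusted p 0.524). That interval does not reach the one of ILV5, though the difference between these genes was not itself tested.

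The last step is done by 2 paralogous branched-chain aminotransferases, Bat1 in the mitochondrion and Bat2 in the cytosol. BAT1 levels were -2.22, -2.08, -2.43 and -2.46 in 58F. In 112A they were -1.88, -1.90, -2.38 and -1.97. The wild type gave -0.43, -0.82, -0.71 and -0.62. The wild-type arrays lay far above the rest, and 112A replicate 3 lay among the 58F arrays. BAT1 was 3.15-fold lower in 58F than in the wild type (-1.65 ± 0.12, adjusted p 8.64e-07) and 2.61-fold lower in 112A (-1.39 ± 0.12, adjusted p 9.79e-06). The difference between 58F and 112A, -0.27 ± 0.12, was not called (adjusted p 0.12). Without 112A replicate 3 it was -0.38 and was called (adjusted p 0.0206).

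BAT2 levels were 1.11, 1.09, 1.17 and 1.08 in 58F. The 112A arrays gave 1.03, 1.15, 1.50 and 1.22. The wild-type arrays gave 1.77, 1.82, 1.76 and 1.69. The wild type was above both intrabody strains, whose arrays overlapped. BAT2 had the smallest decrease of the 9 genes that fell, 1.57-fold in 58F (-0.65 ± 0.08, adjusted p 3.58e-05) and 1.45-fold in 112A (-0.53 ± 0.08, adjusted p 0.000317). Between 58F and 112A the difference was -0.11, with a 95% interval of -0.29 to 0.07 (adjusted p 0.312). It was -0.02 without 112A replicate 3, the highest 112A array, and -0.18 without 112A replicate 1, the lowest, and neither was called.

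**Figure D3:**
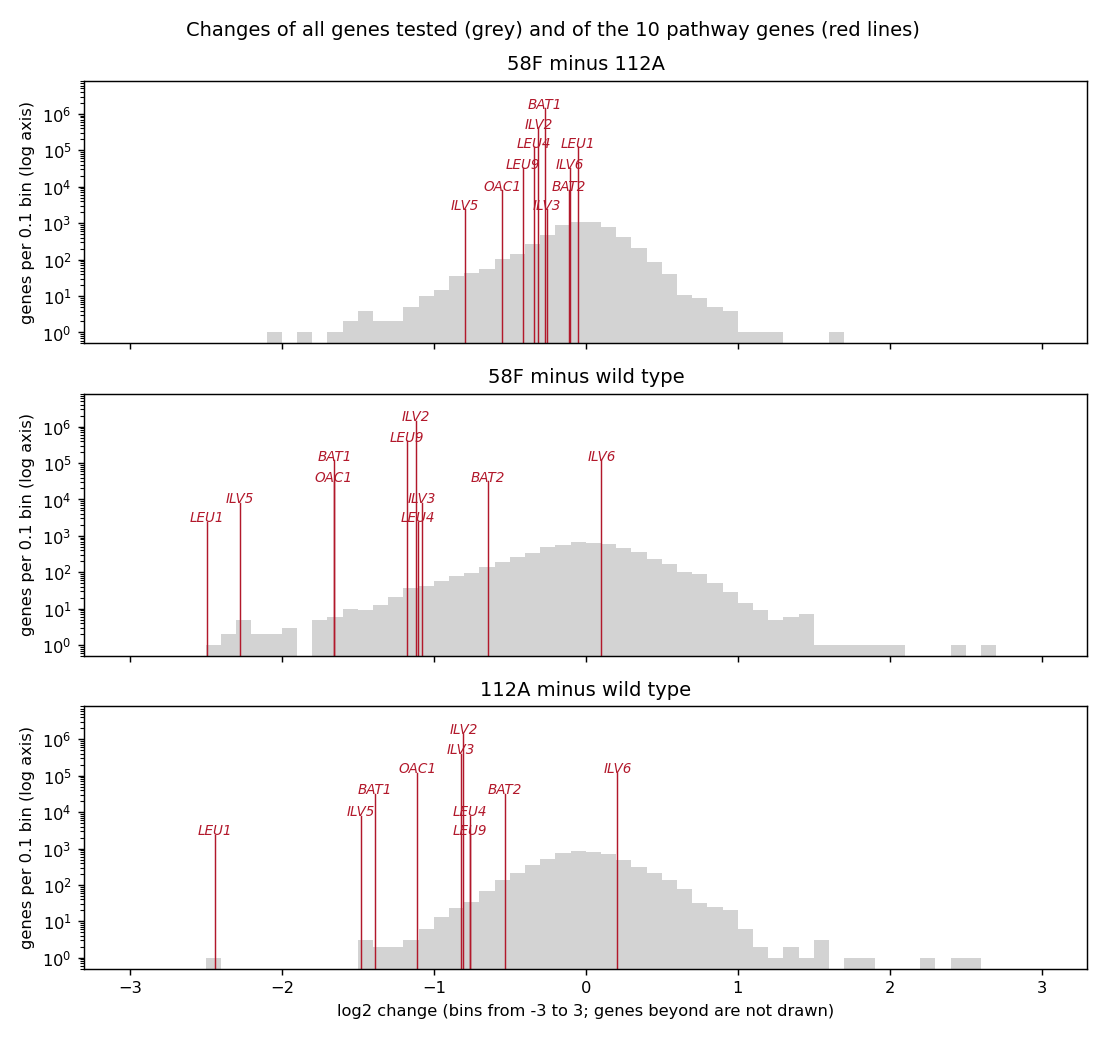
Distribution of log2 changes over the 5827 genes tested (grey, log count axis) with the 10 pathway genes as red lines, whose heights only separate the labels. Against the wild type LEU1 is the lowest gene of all, while ILV6 lies to the right of 0 in both strains.

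Wild-type replicate 1, the array with the brightest 75th percentile, gave the highest wild-type level for 8 of the 10 genes. Without it each of the 9 decreases was smaller in both strains and still called. The median change of the 10 genes was then -1.12 in 58F and -0.76 in 112A.

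Some of the 10 genes are partners or paralogues, and the change of one relative to the other was tested within arrays, with an exact permutation test of 4 arrays against 4 whose smallest p is 0.0286. Relative to the wild type, the change of BAT1 minus that of BAT2 was -1.01 in 58F and -0.852 in 112A, and in both the arrays of the groups did not overlap. Each had a two-sided exact permutation p of 0.0286, which became 0.0643 after Benjamini-Hochberg adjustment over the 9 such tests, so neither passed. For ILV2 minus ILV6 the values were -1.22 in 58F and -1.01 in 112A, again with no overlap of the arrays. Both had an exact permutation p of 0.0286 and an adjusted p of 0.0643. As 0.0286 is the smallest p of this test, complete separation of the arrays did not pass the adjustment, given the p-values of the other tests among the 9. Missing the threshold therefore does not show that the genes of these pairs changed equally. For the synthases, the change of LEU4 exceeded that of LEU9 by 0.0727 in 58F (exact permutation p 0.571) and by 0.00199 in 112A (exact permutation p 1), and its sign turned under other processing. Between 58F and 112A the relative differences were -0.156 for BAT1 against BAT2, -0.208 for ILV2 against ILV6 and 0.0707 for LEU4 against LEU9, with exact permutation p-values of 0.571, 0.114 and 0.429. BAT1 against BAT2 was -0.363 without 112A replicate 3 and -0.0409 without 112A replicate 1. LEU4 against LEU9 was 0.0106 without 112A replicate 2 and 0.116 without 112A replicate 3.

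**Figure D4:**
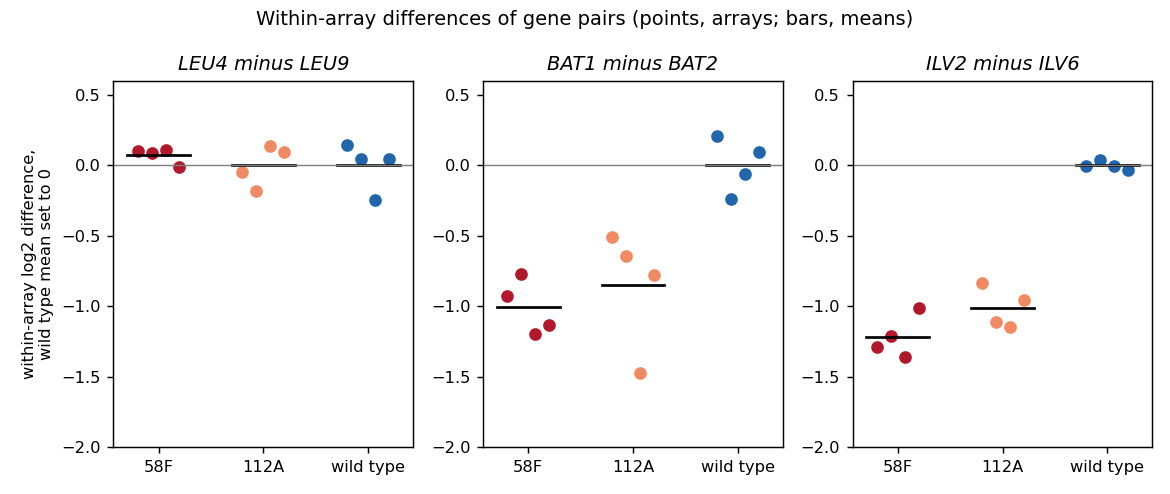
Within-array log2 difference between the genes of each pair on every array, shown relative to the wild-type mean; points are arrays and bars are group means. BAT1 against BAT2 and ILV2 against ILV6 are lower on all 8 intrabody arrays than on any wild-type array, whereas the groups overlap for LEU4 against LEU9.

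Other genes of the pathway were read beside the 10. LEU2, isopropylmalate dehydrogenase, catalyses the step that follows Leu1 and moved the other way. Its mean level was 6.15 ± 0.09 (SD, n = 4) in 58F, 5.88 ± 0.16 in 112A and 1.53 ± 0.07 in the wild type. LEU2 was 24.6-fold higher in 58F than in the wild type (4.62 ± 0.08 SE, adjusted p 2.44e-12) and 20.5-fold higher in 112A (4.35 ± 0.08, adjusted p 4.89e-12). Its level differed between groups that also differ in pre-culture, intrabody and slide, and these cannot be told apart. Whether its RNA came from the native gene or from an introduced copy was not tested. The part of LEU2 in the decrease of the 10 genes was not tested either.

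Of the regulators only RNA was measured, and their activity was not. LEU3 was higher than in the wild type by 0.27 ± 0.07 in 58F (adjusted p 0.00697) and by 0.33 ± 0.07 in 112A (adjusted p 0.00342). Its level on wild-type replicate 1 lay within the range of both intrabody strains. GCN4 differed from the wild type by -0.01 ± 0.07 in 112A (adjusted p 0.915), and its sign there turned with quantile or loess normalization. In 58F its difference of -0.24 ± 0.07 was called (adjusted p 0.0109), but not with quantile (adjusted p 0.765) or loess normalization (adjusted p 0.646). GDH1, the glutamate dehydrogenase that supplies the amino group donor, was 2.20-fold lower in 58F (-1.14 ± 0.11, adjusted p 4.31e-06) and 1.77-fold lower in 112A (-0.82 ± 0.11, adjusted p 0.000119). ILV1, the threonine deaminase that opens isoleucine synthesis, was lower in 58F than in the wild type (-0.38 ± 0.09, adjusted p 0.00253). Its value of -0.21 ± 0.09 in 112A missed the threshold (adjusted p 0.0635), but passed it when 112A replicate 2 (adjusted p 0.04), wild-type replicate 2 (0.0437) or wild-type replicate 4 (0.0447) was left out. It also passed with median, quantile or cyclic loess scaling and with normexp background correction, with adjusted p from 0.0199 to 0.0413. Without wild-type replicate 1 it was -0.11 (adjusted p 0.104).

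Between 58F and 112A these 5 genes gave 1 higher and 2 lower calls, all near the threshold. That is a called share of 60%, against 32.2% of all genes, 13.7% higher and 18.5% lower. LEU2 was higher by 0.26 ± 0.08 (adjusted p 0.0219), and the call was lost without 58F replicate 2 (adjusted p 0.0627) or 58F replicate 3 (adjusted p 0.0638). GCN4 differed by -0.22 ± 0.07 (adjusted p 0.0271). It no longer passed when 58F replicate 1 or 2 or 112A replicate 1 or 3 was left out, with adjusted p from 0.0523 to 0.0845. Quantile normalization ended the calls of LEU2 (adjusted p 0.103) and GCN4 (0.234), and loess normalization that of GCN4 (0.155). GDH1 differed by -0.31 ± 0.11 (adjusted p 0.0442). GDH1 missed the threshold when any 1 of 58F replicates 1, 2 and 3, 112A replicates 1, 3 and 4, or wild-type replicates 2 and 3 was left out, with adjusted p from 0.0544 to 0.119. It also missed it when the whole wild-type group was left out (adjusted p 0.0733). The same held with no filter on dim probes (adjusted p 0.0564) and with the replicate block (adjusted p 0.051). LEU3, at -0.06 ± 0.07, was not called (adjusted p 0.566), but with normexp background correction it was -0.17 and was called (adjusted p 0.0192), and with quantile normalization its sign turned. ILV1, at -0.17 ± 0.09 (adjusted p 0.157), was called only when wild-type replicate 1 (adjusted p 0.0181) or the whole wild-type group (adjusted p 0.0347) was left out.

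Amino acid uptake was read from 6 listed genes, 4 permeases and 2 of their regulators. Of the 6, 5 were lower than in the wild type in 58F and 6 in 112A, and none was higher, whereas 33% and 25.6% of all genes were called lower. The medians of the 6 were -0.60 and -0.63, against -0.02 and -0.01 over all genes. BAP2, a permease for branched-chain amino acids, differed from the wild type by -1.03 ± 0.06 in 58F and -1.08 ± 0.06 in 112A. AGP1, a broad amino acid permease, gave -0.85 ± 0.09 and -1.18 ± 0.09. TAT1, a permease for tyrosine and branched-chain amino acids, gave -0.77 ± 0.10 and -0.92 ± 0.10. Between 58F and 112A only AGP1 of the 6 was called, a share of 16.7% against 32.2% of all genes. AGP1 was higher in 58F (0.33 ± 0.09, adjusted p 0.0196). That call was lost without 58F replicate 3 (adjusted p 0.0571) or without 112A replicate 1 (adjusted p 0.057).

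Isoleucine synthesis starts from threonine. Of 7 listed genes that make threonine or deaminate it, 3 were lower in 58F than in the wild type and none higher, while in 112A 2 were lower and 1 was higher. In both comparisons 4 of the 7 were not called, and the called share of 42.9% was below the 61.7% in 58F and 48.3% in 112A over all genes. HOM3, the aspartate kinase at the head of threonine and methionine synthesis, fell to a mean level of -2.07 ± 0.07 (SD, n = 4) in 58F and -1.43 ± 0.11 in 112A, from -0.45 ± 0.23 in the wild type. These are changes of -1.62 ± 0.10 SE (adjusted p 2.71e-07) and -0.99 ± 0.10 (adjusted p 2.27e-05), and the difference of -0.63 ± 0.10 between 58F and 112A was also called (adjusted p 0.000918). CHA1, the catabolic serine and threonine deaminase, was higher in 112A than in the wild type (0.60 ± 0.13, adjusted p 0.00363) and lower in 58F than in 112A (-0.90 ± 0.13, adjusted p 0.000697). HOM2, the next enzyme after Hom3, differed by -0.44 ± 0.10 in 58F (adjusted p 0.00224) and by -0.29 ± 0.10 in 112A (adjusted p 0.0304). The call in 112A was lost without 112A replicate 3 or 4 or wild-type replicate 3 or 4, with adjusted p from 0.058 to 0.0806. It was also lost with cyclic loess normalization (adjusted p 0.0607) and with only the 2 groups compared (adjusted p 0.072). The 112A and wild-type arrays overlapped for HOM2.

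**Figure D5:**
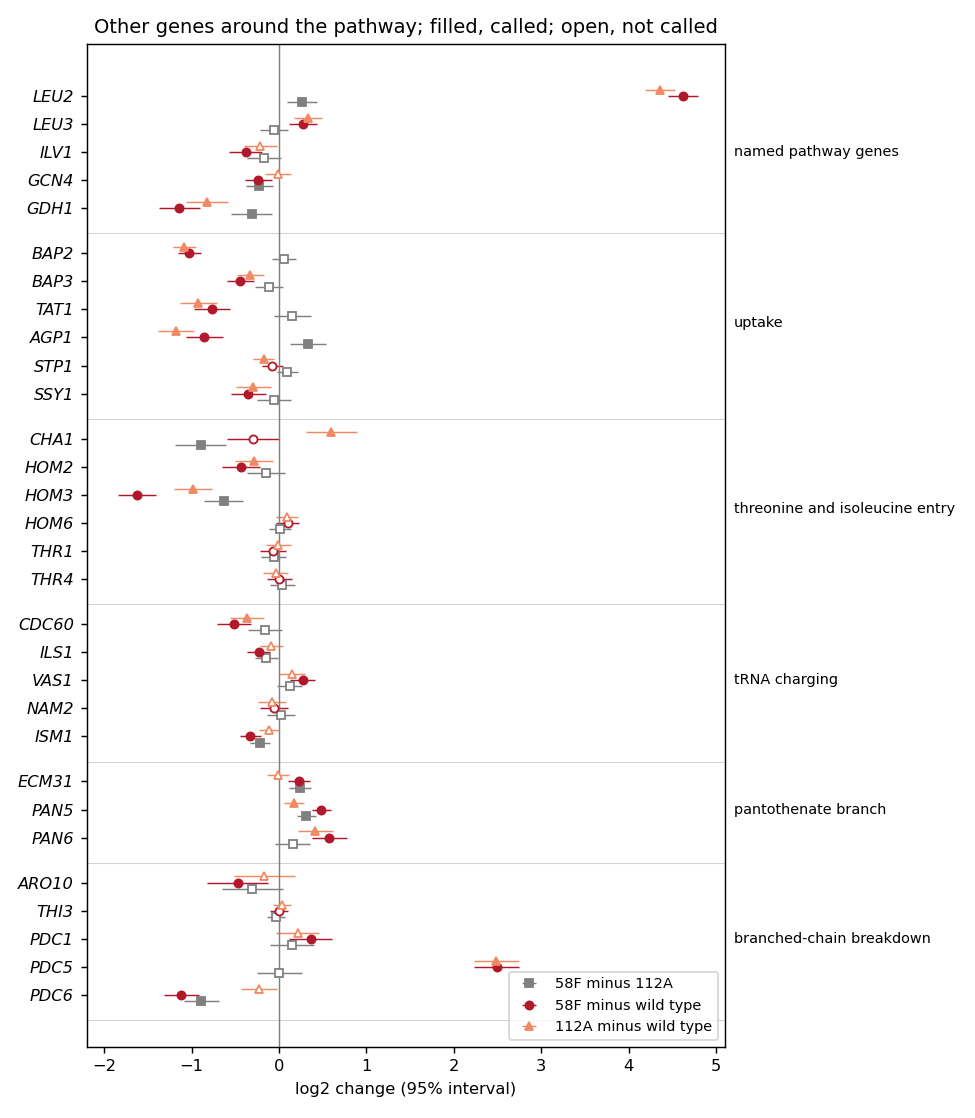
Log2 change, with its 95% interval, of each other pathway gene (rows, grouped by list) in the 3 comparisons (symbols); filled symbols were called and open ones were not. LEU2 and PDC5 lie far to the right in both comparisons with the wild type, and BAP2, AGP1, TAT1, HOM3 and GDH1 lie to the left.

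Pantothenate synthesis branches off at the valine keto acid. All 3 of its listed genes were higher in 58F than in the wild type, where 28.7% of all genes were called higher, and 2 of the 3 were higher in 112A, against 22.7% of all genes. None of the 3 was lower. PAN6, pantothenate synthase, differed from the wild type by 0.57 ± 0.09 in 58F and 0.42 ± 0.09 in 112A. PAN5, the pantoate reductase, gave 0.48 ± 0.05 and 0.17 ± 0.05. ECM31, the hydroxymethyltransferase of the first step, gave 0.23 ± 0.06 in 58F (adjusted p 0.00396) and -0.01 ± 0.06 in 112A (adjusted p 0.922). Between 58F and 112A 2 of the 3 were called, both higher in 58F, where 13.7% of all genes were called higher. PAN5 differed by 0.31 ± 0.05 (adjusted p 0.00106) and ECM31 by 0.24 ± 0.06 (adjusted p 0.00827). PAN6, at 0.16 ± 0.09, was not called (adjusted p 0.209).

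Decarboxylases break the keto acids down. Of 5 listed genes, including a regulator, 2 were higher and 2 lower in 58F than in the wild type, a called share of 80% against 61.7% of all genes. In 112A 1 was higher, a share of 20% against 48.3%. PDC5, a pyruvate decarboxylase, had mean levels of 2.15 ± 0.09 (SD, n = 4) in 58F, 2.14 ± 0.24 in 112A and -0.34 ± 0.20 in the wild type. It was 5.61-fold higher in 58F (adjusted p 5.73e-08) and 5.60-fold higher in 112A (adjusted p 1.31e-07). PDC6, a minor isozyme, was lower in 58F both against the wild type (-1.12 ± 0.09, adjusted p 1.51e-06) and against 112A (-0.89 ± 0.09, adjusted p 0.000117). ARO10, a decarboxylase of the aromatic and branched-chain keto acids, was lower in 58F than in the wild type (-0.47 ± 0.16, adjusted p 0.0213). That call was lost without 58F replicate 1 (adjusted p 0.0541), 58F replicate 3 (0.0506) or wild-type replicate 1 (0.0606). It was also lost with normexp background correction (-0.32, adjusted p 0.0534). The probe of ARO10 is absent from the authors' value table, so the call could not be checked there.

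Of the 5 listed genes for charging transfer RNAs with these amino acids, 1 was higher and 3 lower in 58F than in the wild type, or 80% called against 61.7% of all genes. In 112A 1 was lower, or 20% against 48.3%. CDC60, the cytosolic leucyl-tRNA synthetase, gave -0.52 ± 0.09 in 58F and -0.36 ± 0.09 in 112A, and both calls were lost in the authors' deposited table (adjusted p 0.0895 and 0.0823). VAS1, the valyl-tRNA synthetase, was higher in 58F than in the wild type (0.27 ± 0.07, adjusted p 0.00405). ISM1, the mitochondrial isoleucyl-tRNA synthetase, was lower in 58F than in the wild type (-0.33 ± 0.05, adjusted p 0.00023) and than in 112A (-0.21 ± 0.05, adjusted p 0.0098).

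Genes whose levels followed a member most closely over the 12 arrays were sought by Pearson's r among 5806 other tested genes, those with a value on every array. As the arrays form 3 groups on 3 slides, a high r describes a shared order of the groups and carries no p. For LEU1 the closest was NIP100, a dynactin subunit, at r = 0.997. For ILV5 it was HOM3 at 0.995, followed by the chaperone gene YDJ1. For BAT1 it was ALD5, a mitochondrial aldehyde dehydrogenase, at 0.989, followed by the arginine synthesis gene ARG1 at 0.980. OAC1 was closest to JLP1, a sulfonate dioxygenase gene, at 0.989, and ILV2 to RSM22 at 0.985 with OAC1 next at 0.984. The closest genes were TPN1 at 0.993 for LEU4, MRM1 at 0.983 for ILV3, ATG36 at 0.982 for BAT2 and HIR3 at 0.897 for ILV6. ILV6 had the lowest of these top correlations. Over 5 other processing settings the closest gene stayed first in 25 of 50 recomputations.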

How the data were processed

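RNA from 12 yeast samples was labelled with Cy3 and hybridised to single-colour Agilent arrays, 4 per group, per the labels' protocols. Spot intensities were extracted by the authors with Agilent Feature Extraction 10.7.3.1, per the file headers, and the deposited processed signal is that software's output, whose correction settings are not given in the sources used here. The deposited value table holds log2 values of 5297 probes made by the authors, and its offset from the scanner values was nearly constant within each array (SD 0.0135 to 0.0669), so it was used as an alternative. The table's scaling step is not given in the sources used here.

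From the processed signal, control spots and outlier spots were left out, the 2 spots of a probe were averaged, and log2 values minus the array's 75th percentile entered a linear model of the 3 groups in limma (lmFit and eBayes, version 3.58.1, under R 4.3.3). Genes had to be well above background on at least 4 arrays, and where a gene had several probes the brightest on average was taken. P-values are two-sided and Benjamini-Hochberg adjusted over 5827 genes. The tests were checked on simulated data. Symbols were taken from RefSeq's R64 table through the systematic name, which matched 5642 of 6224 genes. Normexp was run on the median signal in place of the planned mean signal.

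All members are named, as are LEU2, LEU3, ILV1, GCN4 and GDH1 and up to 3 called genes per further list and comparison. The gene most like LEU9 is not reported here. The members and lists were chosen with earlier results of these data known. Alternatives were median, quantile and cyclic loess scaling, normexp background correction, other filters, the deposited table, only the 2 groups compared, the replicate block, and leaving out each array. The number of arrays limits precision.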

Additional observations from a re-analysis of the deposited data

Results flagged for a closer look

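In 6 of the 90 sets of 4 arrays examined, 1 array stood apart from the other 3 by more than 0.829 of the set's whole range, and 4 of these sets belonged to the 10 synthesis genes. Chance flags about 1 in 20 such sets. ILV2 was high on wild-type replicate 1, at 0.8028 against 0.6379 on the nearest array. ILV6 was high on 112A replicate 2, at 1.3392 against 1.1437. LEU4 was low on that same array, at 2.5578 against 2.7385, and ILV1 was high there, at -1.917 against -2.0921. BAT1 was low on 112A replicate 3, at -2.3775 against -1.9675. PAN5 was high on 58F replicate 2, at -1.6502 against -1.7843.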

How the results depend on the processing

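The 30 changes of the 10 genes were recomputed under 21 alternatives each. Of 630 values, 625 kept their direction and their side of the threshold, 5 newly passed it, and none was lost or reversed. Those 5 concerned ILV3 and BAT1 between 58F and 112A and ILV6 between 58F and the wild type. The count of members higher in 58F than in the wild type, 0, became 1 without wild-type replicate 1 and ranged from 0 to 1 when arrays were left out in turn. The members called lower ranged from 5 to 7 between 58F and 112A. Of 965 values for the other 20 named genes, 912 kept direction and call, 36 lost it, 10 newly passed and 7 reversed. With quantile normalization LEU3 between 58F and 112A was 0.0146. GCN4 between 112A and the wild type was 0.0756 with quantile normalization, 0.0856 with cyclic loess and 0.019 in the authors' deposited table, and ranged from -0.0513 to 0.0146 when arrays were left out. LEU4 minus LEU9 relative to the wild type turned with normexp background correction to -0.0876 in 58F and -0.222 in 112A. Leaving out arrays gave -0.00846 to 0.121 in 58F and -0.0791 to 0.0621 in 112A. The cause of these turns was not tested. CDC60 lost both calls against the wild type in the authors' deposited table (adjusted p 0.0895 and 0.0823). Of the calls between 58F and 112A, 42.6% were higher, and 53% with quantile normalization. The correlations between arrays of the same replicate number ran from -0.174 to 0.194, and 5 of 12 were over 0.1. In each group replicate 2 had the largest share of gene spots well above background and replicate 3 the smallest. Arrays of different numbers were not correlated for comparison, so whether replicate numbers pair the arrays was not settled. With the replicate block, 1714, 3501 and 2646 genes were called between 58F and 112A, 58F and wild type, and 112A and wild type, and 5, 9 and 9 members were lower. Slide and group cannot be told apart in any setting, and pairs tested with 4 arrays a side cannot give a p under 0.0286.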
